A study of Rattus norvegicus with 9 samples.

Results

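Prenatal exposure to valproic acid (VPA) was compared with no exposure across both postnatal treatments, with the 6 hippocampal arrays of VPA-exposed rats set against the 3 arrays of control rats. The members were taken from the sample titles, so that all 9 arrays of the series entered and no measured value chose them. All rats were male Sprague-Dawley, and RNA of the dorsal hippocampus was taken on postnatal day 56 and hybridized to 1 array per rat. Control rats came from dams given water in place of VPA and received intranasal vehicle. Vehicle-treated VPA rats came from dams that received a single oral dose of 600 mg/kg VPA in mid-gestation, and received the same vehicle. OXT-treated VPA rats came from dams with the same VPA dose and received intranasal oxytocin (OXT) at 12 μg/kg/d from postnatal day 21 to day 55. The litters came from 3 VPA dams and 2 control dams. No source used here ties an array to a litter, so exposure and litter cannot be told apart and the p values treat littermates as independent. The design holds no OXT-treated control group. The question was which differences from control the 2 VPA groups had in common, whatever their treatment after weaning.

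VPA is an anticonvulsant that inhibits histone deacetylases, the enzymes that remove acetyl groups from histones. Exposure of the embryo around the closure of the neural tube gives offspring with altered social behavior, and is used in rodents as a model of autism spectrum disorder. The hippocampus is built of the granule cells of the dentate gyrus and the pyramidal cells of the CA fields, which use glutamate, and of interneurons, which use GABA. Its neurons respond to activity with immediate early genes, a first wave of transcription factors and phosphatases that is switched on within minutes and off again soon after.

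The arrays were even in their overall signal. Their median log2 values ranged from 5.75 to 5.82, and 10955 to 11189 probe sets were over a log2 value of 6.6 on each. Across probe sets, arrays of 1 group correlated at 0.9827 or more. Hippocampal markers were present, with the calcium sensor Hpca between 11.29 and 12.49 in all arrays. Marker lists of neighboring tissues were not even between arrays, and their values stand beside the results below. No marker is at 0 on these arrays, which give a background value where a transcript is absent. In bulk tissue, fewer cells of a type and less RNA per cell cannot be told apart. A log2 difference of 1 is 2-fold, and each difference is the mean of the 2 VPA group means minus the control mean, given with the standard error (SE) and a p that was adjusted over all 30429 probe sets.

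Of 18166 genes with 1 symbol, 1791 (9.86%) differed between the VPA groups and the control at an unadjusted p under 0.05 in limma, 808 higher (4.45%) and 983 lower (5.41%). Among the 8611 genes whose mean log2 value was over 6.6 in at least 1 group, 4.92% were higher and 8.67% lower at this p, so that well-expressed genes were more often lower than higher. With a difference of more than 1.5-fold and this level added as criteria, 155 genes were left (0.853%), 76 higher (0.418%) and 79 lower (0.435%). Of these, 31 differed by more than 2-fold. After adjustment, 2 genes passed at 0.05, both higher, and 98 genes lay under 0.1. This count rests on single arrays, and it was 0 without control replicate 1 or 2 or without replicate 1 or 2 of either VPA group. Without control replicate 3 or without replicate 3 of the vehicle-treated VPA group, 47 and 45 genes were lower by the criteria. In 1278 genes (7.04%), all 6 VPA arrays lay on one side of all 3 control arrays, 508 above (2.8%) and 770 below (4.24%), and among genes over the level 3.91% lay above and 7.65% below. A single gene separated in this way has the smallest p that an exact permutation test of 6 against 3 arrays allows, which is 0.0238, two-sided. Of the 155 genes, 121 were separated, 60 above and 61 below the control arrays.

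The 2 VPA groups went the same way in all 155 genes that met the criteria. The mean of each group was past 1.5-fold in 117 of them, while 20 were past it in the vehicle-treated group alone and 18 in the OXT-treated group alone. Both groups are set against the same control arrays, so this count is partly fixed by how the genes were chosen. A stricter count asks that every single VPA array be past 1.5-fold of the control mean, and 28 of the 155 genes met it, 18 higher and 10 lower. The higher ones were Slc17a6, Nr2f2, Vwc2l, Cbln2, Cdh7, Ankrd34b, Slc35g2, Tmem91, Calb2, Grm8, Adgra1, Gpr165, Grin3a, Kcnk9, Tmem255a, Rgs4, Htr2c and Adgrl2. The lower ones were Stoml3, Nr4a1, Trhde, Pbld1, Nr4a3, Fos, Egr1, Prss23, Arc and Egr2.

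The 10 genes with the smallest p had every VPA array above every control array. A small p also selects for a small spread within groups. Ankrd34b, an ankyrin repeat protein, had log2 values of 6.81, 6.89 and 6.90 in control, 7.76, 7.83 and 7.65 in vehicle-treated VPA and 7.66, 7.73 and 7.81 in OXT-treated VPA rats. The 6 VPA arrays spanned 0.18 and stood well clear of the control arrays, with a difference of 0.87 ± 0.07 (SE; adjusted p = 0.0239). Nr2f2 encodes the orphan nuclear receptor COUP-TFII, which marks ventral hippocampus and interneurons of the caudal ganglionic eminence. It read 6.30, 6.37 and 6.12 in control, 7.50, 7.60 and 7.24 in vehicle-treated VPA and 7.45, 7.32 and 7.23 in OXT-treated VPA rats, and the difference was 1.13 ± 0.10 (SE; adjusted p = 0.0302). These were the 2 genes under 0.05 after adjustment. The lowest VPA array of Nr2f2 lay far above the highest control array.

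The other 8 of the 10 genes with the smallest p were higher as well. Slc35g2, a member of solute carrier family 35, read 6.17, 6.01 and 6.16 in control, 7.07, 7.06 and 7.18 in vehicle-treated VPA and 6.96, 7.20 and 6.78 in OXT-treated VPA rats, with a difference of 0.93 ± 0.10 (SE; adjusted p = 0.068). Grin3a, the NMDA receptor subunit that lowers calcium entry, read 6.34, 6.51 and 6.69 in control, 7.30, 7.50 and 7.34 in vehicle-treated VPA and 7.51, 7.57 and 7.22 in OXT-treated VPA rats, and was higher by 0.89 ± 0.11 (SE; adjusted p = 0.068). In both genes the groups of 6 and 3 arrays were apart. Kcnk9, a leak potassium channel that sets the resting potential, was higher by 0.81 ± 0.10, the adhesion receptor Adgra1 by 0.69 ± 0.08, the membrane proteins Tmem255a and Tmem91 by 0.76 ± 0.09 and 0.97 ± 0.12, the small GTPase Rab9b by 0.64 ± 0.08 and the zinc finger protein Zcchc12 by 0.59 ± 0.07. The adjusted p of each of these genes was 0.068. All were separated, and Zcchc12 was the only one of the 10 with the smallest p whose OXT-treated and vehicle-treated VPA groups differed at an unadjusted p under 0.05.

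**Figure D1:**
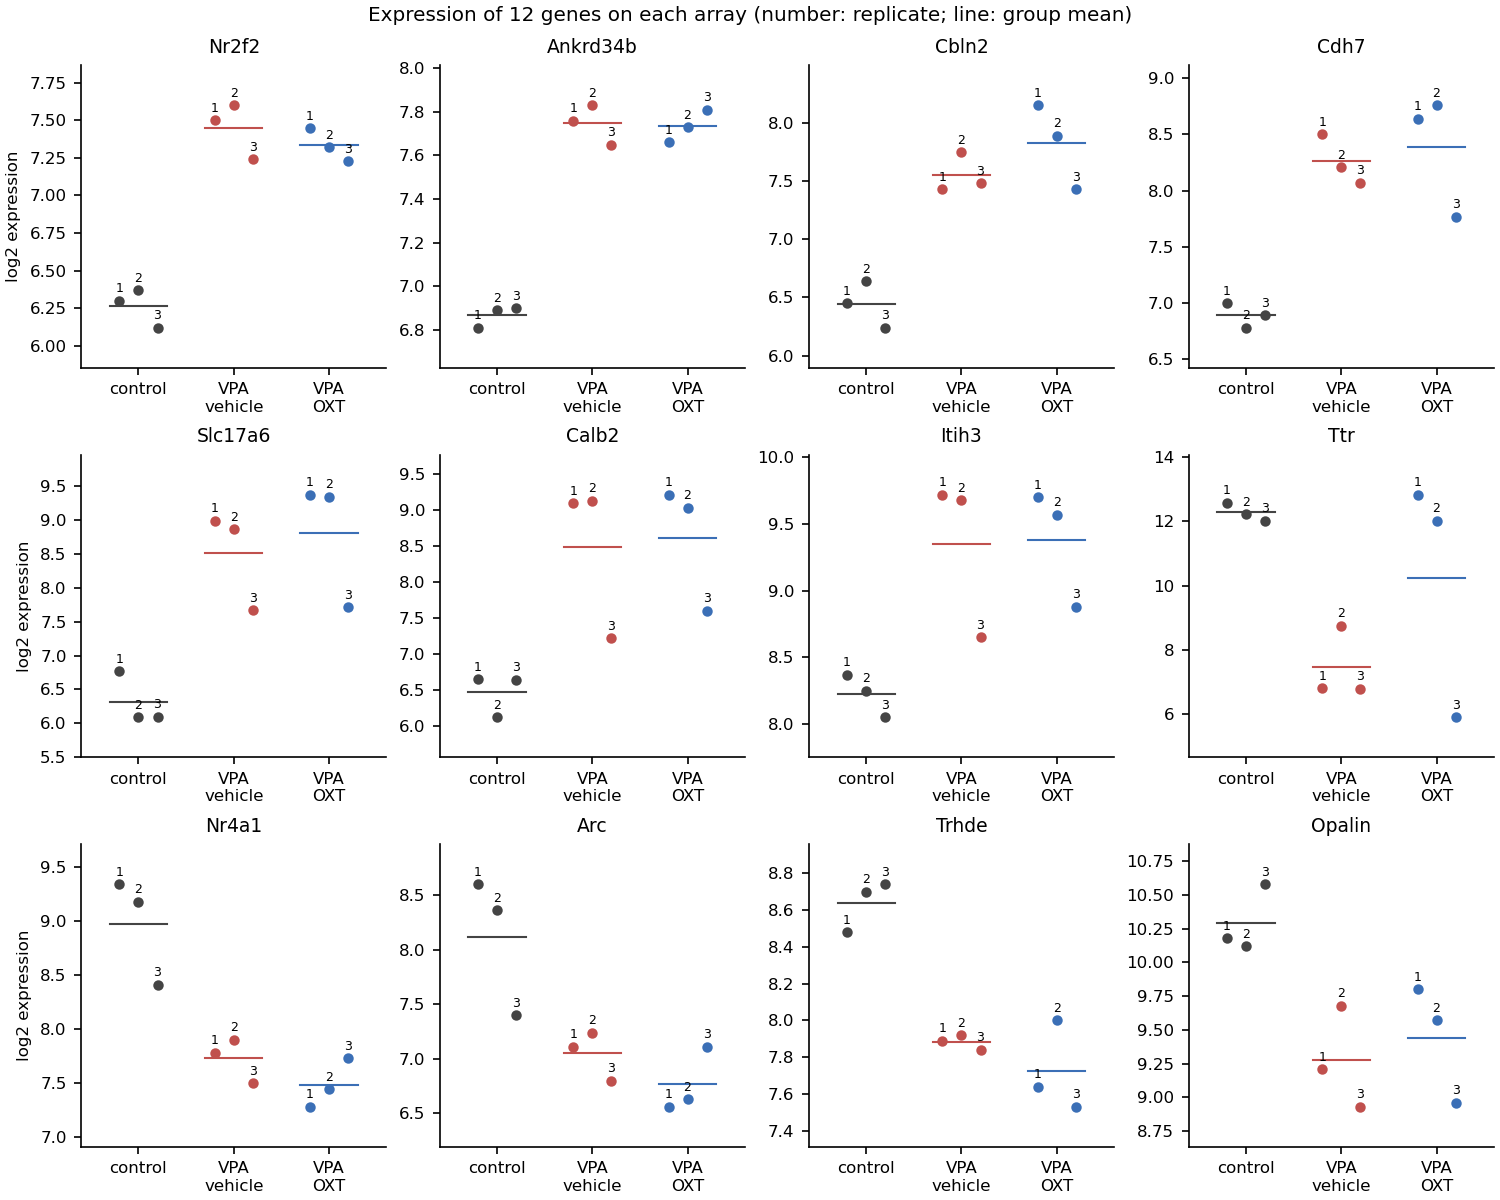
Log2 expression of 12 genes on each array, by group, with the replicate number beside each point and a line at the group mean. The vertical axis of each panel spans its own values and does not start at 0. Nr2f2, Ankrd34b and Trhde keep the VPA arrays close together, Slc17a6, Calb2 and Itih3 are lower in replicate 3 than in replicates 1 and 2 of both VPA groups and still above every control array, and Ttr splits the OXT-treated VPA group.

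The largest higher differences were in genes that vary among the VPA arrays. Slc17a6, the vesicular glutamate transporter VGLUT2 used by thalamic and other subcortical neurons, read 6.77, 6.09 and 6.10 in control, 8.99, 8.86 and 7.67 in vehicle-treated VPA and 9.37, 9.34 and 7.71 in OXT-treated VPA rats. Replicate 3 of each VPA group was lower than its fellows and still above every control array. The difference was 2.34 ± 0.43 (SE; adjusted p = 0.0883). Calb2, the calcium-binding protein calretinin, read 6.65, 6.12 and 6.64 in control, 9.09, 9.13 and 7.22 in vehicle-treated VPA and 9.21, 9.03 and 7.60 in OXT-treated VPA rats, with the same order of arrays and a difference of 2.08 ± 0.49 (SE; adjusted p = 0.194). The same shape was seen in Gpr165, which encodes an orphan receptor and differed by 1.74 ± 0.36 (SE; adjusted p = 0.129).

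Markers of the thalamus, which borders the hippocampus, moved with these genes. The list holds 17 measured genes, Slc17a6 and Calb2 among them, with a median difference of 0.918 against -0.005 over all genes. Of the 17, 7 were higher and 2 lower, beside 4.45% and 5.41% of all genes. In 4 of them all VPA arrays lay above every control array and in 2 below, beside 2.8% and 4.24% of all genes. The differences of the members ran from -0.772 to 2.337. The mean log2 level of the list was 6.954, 6.611 and 6.822 in control rats. It was 8.036, 7.628 and 6.643 in vehicle-treated and 8.141, 7.939 and 6.789 in OXT-treated VPA rats. Replicates 1 and 2 of both VPA groups were thus above every control array and replicates 3 were within their range. Several defining thalamic genes did not pass in the contrast, with Shox2 at 1.31, Prkcd at 1.08, Tcf7l2 at 1.06 and Lef1 at 0.94. In an alternative chosen after the data were seen, only replicates 3 of the VPA groups, 2 arrays in all, were set against the control arrays. Their choice used a list that holds Slc17a6 and Calb2. Without the 4 VPA arrays of high thalamic level, Slc17a6 was higher by 1.37, Calb2 by 0.94, Gpr165 by 0.93, Cdh7 by 1.03, Cbln2 by 1.01, Nr2f2 by 0.97 and Ankrd34b by 0.86, each at an unadjusted p under 0.05. Of the 166 named genes that passed in the contrast, 51 no longer did with these fewer arrays, among them Slc6a11 (0.16), Syt9 (0.30), Htr2c (0.72) and Slc6a20a (1.08). Itih3, Agt and Chrna4 still passed, at 0.54, 0.415 and 0.595.

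Itih3, Agt and Slc6a11 had the same order of arrays. Itih3, a hyaluronan-binding protein made by astrocytes, read 8.37, 8.25 and 8.05 in control, 9.72, 9.68 and 8.65 in vehicle-treated VPA and 9.70, 9.57 and 8.88 in OXT-treated VPA rats, with a difference of 1.14 ± 0.27 (SE; adjusted p = 0.188). Agt, the precursor of angiotensin, was higher by 0.98 ± 0.26 (SE; adjusted p = 0.248), and Slc6a11, an astrocytic GABA transporter, by 1.08 ± 0.39 (SE; adjusted p = 0.424). All 3 were highest in replicates 1 and 2 of both VPA groups, the arrays of high thalamic level. Slc6a11 did not pass when any 1 control array was left out (1.06 to 1.11). Chrna4, the nicotinic receptor subunit alpha 4, was higher by 1.18 ± 0.29 (SE; adjusted p = 0.217) and the synaptic vesicle protein Syt9 by 1.16 ± 0.44 (SE; adjusted p = 0.466). Syt9 did not pass with the thalamus score as a covariate (0.38), nor when any 1 control array was left out (1.055 to 1.225), or without replicate 1 or 2 of the vehicle-treated VPA group (1.06 and 1.13). Htr2c, the serotonin receptor 2C, read 8.65, 7.87 and 7.78 in control, 8.82, 8.97 and 8.82 in vehicle-treated VPA and 9.95, 9.54 and 8.82 in OXT-treated VPA rats, a difference of 1.05 ± 0.26 (SE; adjusted p = 0.212) in which 1 control array came close to the lowest VPA arrays. The scaffold protein gene Akap12 was higher by 0.99 ± 0.19 (SE; adjusted p = 0.0889).

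A further set of higher genes had the reverse order, with replicate 3 of each VPA group at the top. Vwc2l, a secreted protein with von Willebrand factor C repeats, read 5.57, 5.28 and 5.45 in control, 6.40, 6.67 and 7.51 in vehicle-treated VPA and 6.70, 6.59 and 7.44 in OXT-treated VPA rats. Both replicates 3 were highest, and the difference was 1.45 ± 0.26 (SE; adjusted p = 0.083). Calb1, the calcium-binding protein calbindin, read 8.41, 8.25 and 8.33 in control, 8.91, 9.07 and 9.45 in vehicle-treated VPA and 8.88, 9.24 and 9.44 in OXT-treated VPA rats, a difference of 0.83 ± 0.15 (SE; adjusted p = 0.0815). Etv1, a transcription factor of cortical projection neurons, was higher by 0.47 ± 0.16 with no overlap of the groups, though it did not pass without control replicate 3 (0.36). Without the arrays of high thalamic level, the difference of Vwc2l was 2.04. Of 11 markers of ventral hippocampus, 6 were higher and none lower, beside 4.45% and 5.41% of all genes, with a median of 0.327. The list mean was 6.903 to 7.083 in the control arrays and 7.410 to 7.695 in all VPA arrays. The list shares Calb2 with the thalamus list. With only replicates 3 of the VPA groups against control, its median was 0.70.

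**Figure D2:**
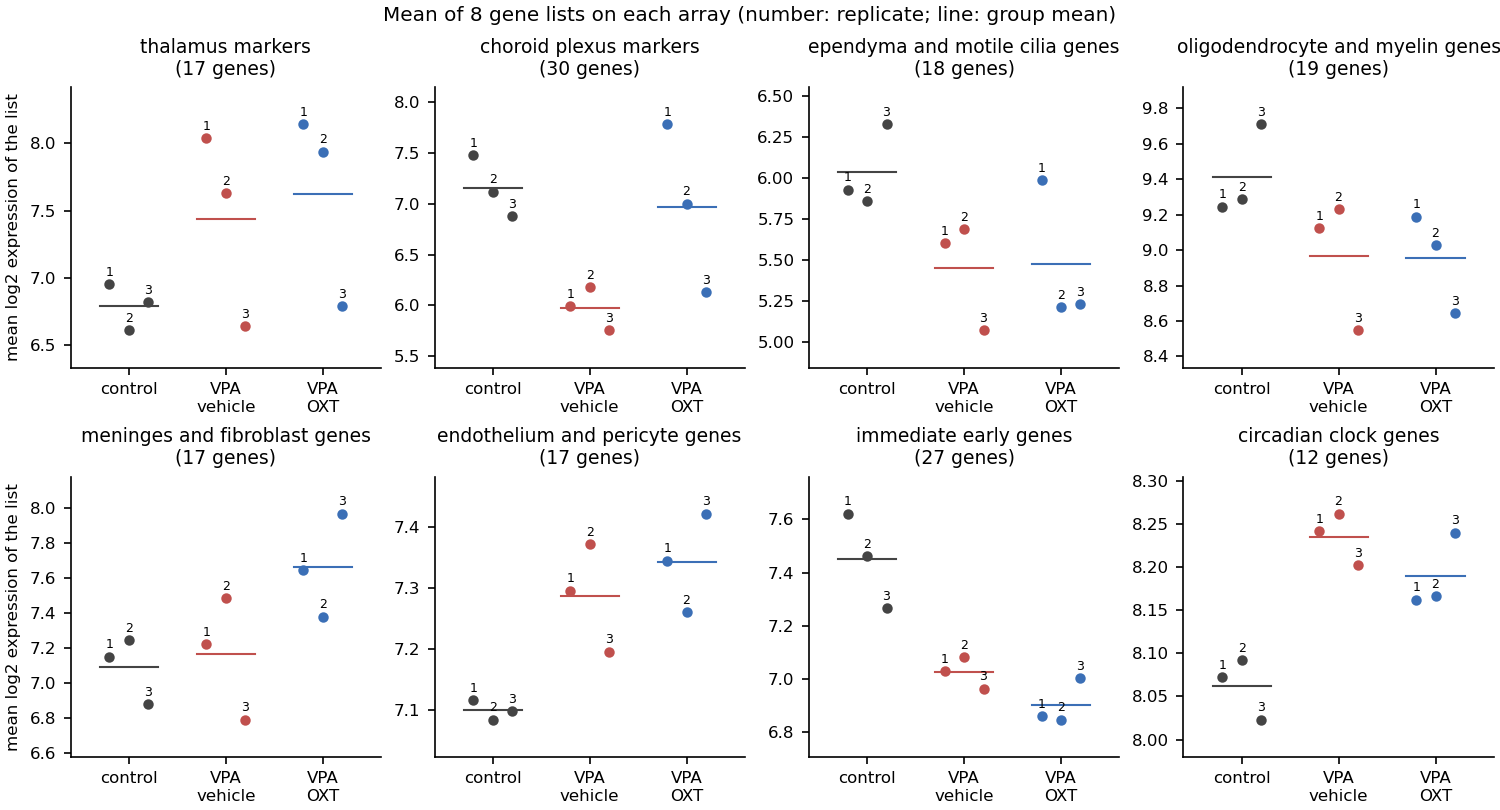
Mean log2 expression of 8 gene lists on each array, by group, with the replicate number beside each point and a line at the group mean. Each vertical axis spans its own values. The thalamus list is high in replicates 1 and 2 of both VPA groups, the myelin list is lowest in replicates 3, and the immediate early gene, endothelium and clock lists keep all 6 VPA arrays apart from the 3 control arrays.

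Immediate early genes were lower in both VPA groups. Of 27 measured, 17 were lower and none higher at an unadjusted p under 0.05, 10 met the criteria and 13 lay below every control array in all 6 VPA arrays, where 5.41%, 0.435% and 4.24% of all genes did so. Of genes over the level, which include 20 of the 27, 8.67% were lower and 7.65% lay below every control array. The median difference of the list was -0.358, and all 27 fitted differences were below 0. The list mean ranged from 7.267 to 7.622 in control and from 6.847 to 7.082 in VPA rats. None of the 27 differed between the OXT-treated and vehicle-treated VPA groups at an unadjusted p under 0.05.

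The transcription factors led the list. Nr4a1, an activity-induced orphan nuclear receptor, read 9.34, 9.18 and 8.41 in control, 7.78, 7.90 and 7.50 in vehicle-treated VPA and 7.28, 7.44 and 7.73 in OXT-treated VPA rats. Control replicate 3 was the lowest of the controls, and no VPA array reached it, with a difference of -1.37 ± 0.21 (SE; adjusted p = 0.0687). Egr1, a zinc finger factor needed for lasting synaptic change, read 9.63, 9.51 and 8.84 in control, 8.45, 8.56 and 8.21 in vehicle-treated VPA and 7.79, 7.96 and 8.44 in OXT-treated VPA rats and was lower (-1.09 ± 0.20 SE, adjusted p = 0.0883). Fos, a subunit of the AP-1 factor, read 7.46, 7.01 and 6.78 in control, 6.23, 6.36 and 6.13 in vehicle-treated VPA and 6.17, 6.13 and 6.15 in OXT-treated VPA rats, with all VPA arrays within a narrow range below the controls and a difference of -0.89 ± 0.14 (SE; adjusted p = 0.0687). The related Nr4a3 was lower (-0.79 ± 0.11 SE, adjusted p = 0.0687), while Nr4a2 gave -0.14 and Fosb -0.14 and did not pass. Npas4, a factor of activity-dependent inhibition, gave -1.0 and passed with 1 vehicle-treated VPA array among the controls.

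Effectors of the same response were lower as well. Arc, a postsynaptic protein that drives the removal of AMPA receptors, read 8.60, 8.36 and 7.40 in control, 7.11, 7.24 and 6.80 in vehicle-treated VPA and 6.56, 6.63 and 7.11 in OXT-treated VPA rats, a difference of -1.21 ± 0.26 (SE; adjusted p = 0.136). Its control arrays spread more widely than its VPA arrays, with replicate 3 nearest to them. Dusp1, a phosphatase that turns off mitogen-activated kinases, read 9.16, 8.66 and 8.67 in control, 8.27, 8.08 and 7.58 in vehicle-treated VPA and 8.19, 7.95 and 7.90 in OXT-treated VPA rats, a difference of -0.83 ± 0.17 (SE; adjusted p = 0.128), and Dusp5, its relative, was lower (-0.91 ± 0.17 SE, adjusted p = 0.0941). The growth factor gene Bdnf gave -0.01, Inhba -0.11 and Nptx2 -0.20, and none of these passed.

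**Figure D3:**
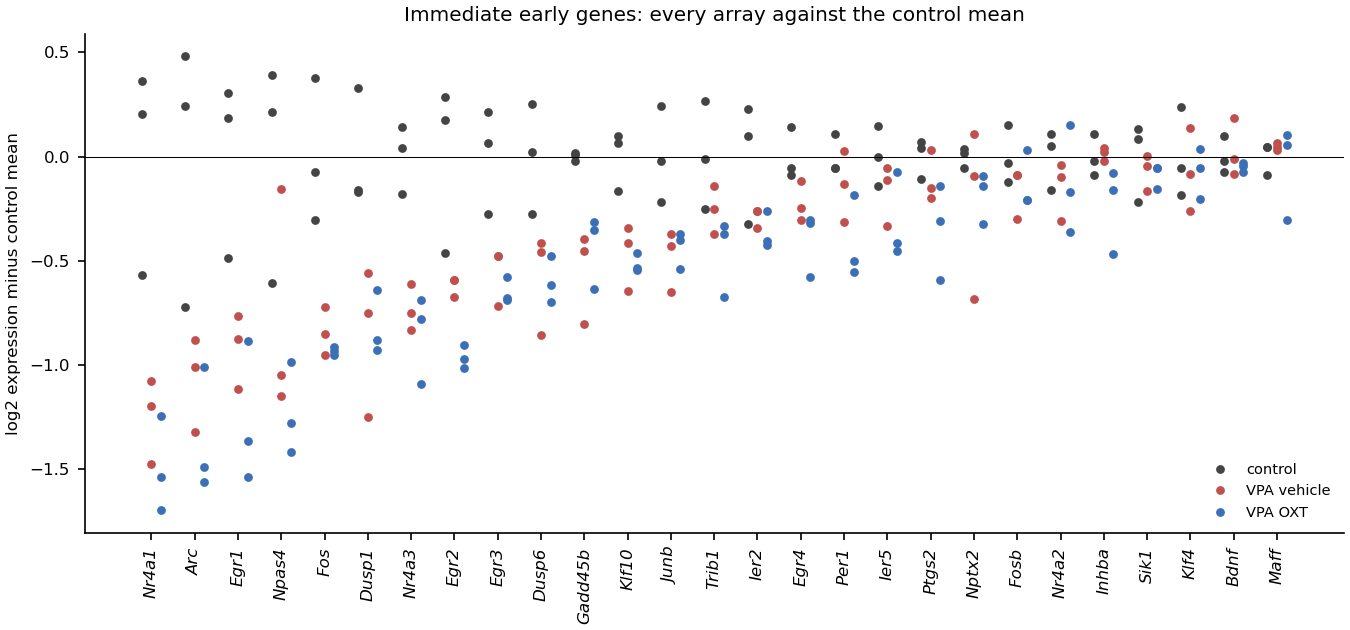
Log2 expression of 27 immediate early genes on every array minus the mean of the control arrays, in the order of the difference between both VPA groups and control, with control arrays in gray, vehicle-treated VPA arrays in red and OXT-treated VPA arrays in blue. For Nr4a1, Egr1 and Fos no VPA array reaches a control array, and at the right end, Klf4, Bdnf and Maff show mixed groups.

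Activity switches these genes on through serum response factor, which binds CArG boxes, and through CREB, which binds the cyclic AMP response element TGACGTCA or its shorter core TGACG. The 250 bases before the transcription start are shown for 4 of the lower genes, from the RefSeq table of the rat assembly GRCr8, as examples of promoters with these motifs. Capitals mark CArG boxes and TGACG cores on either strand, where a core on the other strand reads CGTCA and a full element holds overlapping cores.
Egr1 promoter, chr18:26736828-26737077 (+ strand): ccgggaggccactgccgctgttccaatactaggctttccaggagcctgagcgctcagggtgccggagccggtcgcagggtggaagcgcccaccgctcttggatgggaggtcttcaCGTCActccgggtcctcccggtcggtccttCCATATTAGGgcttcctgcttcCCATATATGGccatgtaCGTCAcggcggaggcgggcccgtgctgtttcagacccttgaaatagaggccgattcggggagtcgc
Egr2 promoter, chr20:21054442-21054691 (- strand): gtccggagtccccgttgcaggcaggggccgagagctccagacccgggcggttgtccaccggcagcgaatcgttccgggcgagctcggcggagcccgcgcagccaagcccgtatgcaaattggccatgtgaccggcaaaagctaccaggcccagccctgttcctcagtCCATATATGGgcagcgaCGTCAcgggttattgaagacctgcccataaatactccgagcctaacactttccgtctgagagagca
Nr4a1 promoter, chr7:134259888-134260137 (+ strand): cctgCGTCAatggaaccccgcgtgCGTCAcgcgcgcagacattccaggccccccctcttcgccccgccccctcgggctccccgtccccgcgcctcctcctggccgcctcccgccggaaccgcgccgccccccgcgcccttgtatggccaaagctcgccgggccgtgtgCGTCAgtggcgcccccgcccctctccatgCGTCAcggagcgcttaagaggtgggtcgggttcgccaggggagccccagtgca
Dusp1 promoter, chr10:17184603-17184852 (+ strand): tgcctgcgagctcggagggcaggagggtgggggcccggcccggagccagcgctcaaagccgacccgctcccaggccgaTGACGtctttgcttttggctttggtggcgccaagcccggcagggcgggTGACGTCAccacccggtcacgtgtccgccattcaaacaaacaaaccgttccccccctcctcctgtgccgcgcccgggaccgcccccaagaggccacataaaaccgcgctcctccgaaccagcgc

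The Egr1 sequence holds 2 CArG boxes and 2 cores, that of Egr2 1 of each, that of Nr4a1 4 cores, and that of Dusp1 1 full element and 3 cores. Of the 27 immediate early genes, 21 matched a promoter of the table. A TGACG core stood in 52.4% of these 21 promoters, against 29.4% of the matched promoters of genes over the level, 19.0% of all 27457 promoters and 20.0% of the matched promoters of genes lower by the criteria, of which 60 matched. The full element stood in 14.3% of the 21, which is 3 promoters, against 3.13% of genes over the level. A CArG box stood in 9.52%, the 2 promoters of Egr1 and Egr2 shown above, against 1.11%. Of the 21 promoters, 11 held a core, a full element or a CArG box. Those of Npas4 (-1.0) and Dusp6 (-0.59) held none of these. These matches describe letters in a window and not bound sites. The GC box GGGCGG, the motif of the factor Sp1, stood in 49.2% of the 59 matched promoters of higher genes and in 53.3% of the 60 of lower genes, beside 60.9% of genes over the level.

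Of 12 clock genes, 3 were higher and none lower, where 4.45% and 5.41% of all genes were, with a median of 0.124, and the list mean was 8.023 to 8.092 in the control arrays and 8.162 to 8.262 in the VPA arrays. Dbp, an output factor of the clock, read 9.54, 9.64 and 9.53 in control, 10.27, 10.35 and 9.90 in vehicle-treated VPA and 10.06, 9.80 and 10.26 in OXT-treated VPA rats, a difference of 0.54 ± 0.13 (SE; adjusted p = 0.194). Ciart and Nr1d1, repressors within the clock, were higher by 0.46 ± 0.10 and 0.30 ± 0.07, while the core factors Clock and Bmal1 gave -0.03 and -0.11 and did not pass. Per1, which is on the immediate early list, gave -0.28 and passed. The part of the hour of tissue collection in the immediate early and clock genes was not tested. Of 14 genes induced by glucocorticoids, 3 were lower and 1 higher. Sgk1, a kinase that the hormone induces, read 9.90, 10.07 and 10.59 in control, 9.64, 9.80 and 8.78 in vehicle-treated VPA and 8.83, 8.72 and 9.26 in OXT-treated VPA rats, a difference of -1.01 ± 0.25 (SE; adjusted p = 0.206), and Pdk4, a brake on glucose oxidation, was lower (-1.0 ± 0.29 SE, adjusted p = 0.298). Gjb6, a connexin of astrocytes, was higher by 0.51 ± 0.14 but did not pass without the arrays of high thalamic level (0.26), and the classical targets Fkbp5 and Tsc22d3 gave -0.22 and 0.22 and did not pass.

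Receptors and channels changed in both directions. Of 13 ionotropic glutamate receptor genes, 3 were higher and 4 lower, beside 4.45% and 5.41% of all genes. Grin3a and the AMPA receptor subunit Gria4 were higher, the latter by 0.31 ± 0.10, and the NMDA receptor subunit Grin2a was lower (-0.41 ± 0.11). The other higher gene, Grik1 (0.37 ± 0.09), was not shown to be shared. It gave 0.51 from control in vehicle-treated but only 0.23 in OXT-treated VPA rats, where it did not pass. Grik1 differed between the VPA groups by -0.28 (OXT-treated minus vehicle-treated) at an unadjusted p under 0.05. Grik4, a kainate receptor subunit of CA3 cells, read 8.38, 8.31 and 8.56 in control, 7.94, 7.97 and 7.62 in vehicle-treated VPA and 7.81, 7.82 and 7.79 in OXT-treated VPA rats, a difference of -0.59 ± 0.10 (SE; adjusted p = 0.0687). Of 4 metabotropic receptors, Grm8, a presynaptic brake on glutamate release, was higher by 0.93 ± 0.14 (SE; adjusted p = 0.0687) and Grm3 lower (-0.38 ± 0.06 SE, adjusted p = 0.0797), both without overlap. Of 11 GABA-A receptor subunits, 3 were higher and 1 lower. Gabrg3 and Gabrb2 were higher by 0.65 ± 0.11 and 0.44 ± 0.09, and Gabra5, the alpha subunit of extrasynaptic receptors in pyramidal cells, was lower (-0.40 ± 0.11). With the thalamus score as a covariate, Gria4 (0.22) and Gabra5 (-0.23) did not pass. Without the arrays of high thalamic level, Gria4 (0.18) and Grik1 (0.32) did not pass.

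Of 22 receptors for monoamines and acetylcholine, 5 were higher and 2 lower, beside 4.45% and 5.41% of all genes. The higher ones included Chrna4, Htr2c and the dopamine receptor Drd5, the last by 0.78 ± 0.19, and the lower ones were the muscarinic receptors Chrm1 and Chrm3 (-0.42 ± 0.11 and -0.34 ± 0.08), each below every control array in all 6 VPA arrays. Of 16 neuropeptide receptors, 5 were higher and none lower, beside the same shares of all genes, with a median of 0.237. Of the 5, Adcyap1r1, Tacr3 and Npy5r did not pass with the choroid plexus score as a covariate (0.22, 0.38 and 0.21). Galr1, the galanin receptor 1, was higher by 0.86 ± 0.21 (SE; adjusted p = 0.218) with 1 OXT-treated VPA array below 1 control array, and Oprk1, the kappa opioid receptor, by 0.49 ± 0.10. The oxytocin receptor Oxtr gave 0.28 and did not pass. Among 15 neuropeptides, Adcyap1, the peptide PACAP, read 6.24, 6.25 and 6.24 in control, 6.85, 7.15 and 7.05 in vehicle-treated VPA and 7.19, 6.75 and 7.20 in OXT-treated VPA rats, a difference of 0.79 ± 0.12 (SE; adjusted p = 0.0687). Pdyn, the precursor of dynorphin, was higher by 0.63 ± 0.21, and Sst, somatostatin, was lower (-0.29 ± 0.10). Sst was not shown to be shared, with -0.47 from control in OXT-treated but only -0.12 in vehicle-treated VPA rats. Replicate 3 of the latter read 9.17, the same as the highest control array. Sst differed between the VPA groups by -0.36 (OXT-treated minus vehicle-treated) at an unadjusted p under 0.05. Pdyn did not pass without control replicate 3 (0.41), nor Sst without control replicate 2 (-0.25) or 3 (-0.29). Without the arrays of high thalamic level, Galr1 (0.70) and Sst (-0.11) did not pass.

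Of 19 potassium channel genes, 4 were higher and 5 lower, and of 19 sodium, calcium and HCN channel genes, again 4 and 5. Kcnc2, a fast potassium channel, was higher by 0.66 ± 0.20 and the sodium channel Scn1a by 0.59 ± 0.17. Without the arrays of high thalamic level they gave 0.33 and 0.25 and did not pass, and Kcnc2 did not pass with the thalamus score as a covariate (0.34). Cacna1g, a low-threshold calcium channel strong in thalamus, was higher by 0.41 ± 0.09, while the presynaptic channel Cacna1a and the inward rectifier Kcnj6 were lower (-0.36 ± 0.09 and -0.43 ± 0.12). Among 13 interneuron genes, Gad1, the enzyme of GABA synthesis, and Reln were higher by 0.43 ± 0.09 and 0.34 ± 0.11, and Dlx2 and Lamp5 were lower (-0.31 ± 0.09 and -0.38 ± 0.13). Of these, Reln (0.18), Dlx2 (-0.26) and Lamp5 (-0.14) did not pass without the arrays of high thalamic level, nor Lamp5 without control replicate 2 (-0.34). Of 22 genes of vesicle release, 2 were higher and 4 lower, beside 4.45% and 5.41% of all genes, and none met the criteria.

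Of 15 cerebellins and trans-synaptic partners, 4 were higher and 2 lower, beside 4.45% and 5.41% of all genes, with a median of 0.082. Cbln2, a secreted organizer that links neurexins to postsynaptic receptors, read 6.45, 6.64 and 6.24 in control, 7.43, 7.75 and 7.48 in vehicle-treated VPA and 8.15, 7.89 and 7.43 in OXT-treated VPA rats, a difference of 1.25 ± 0.16 (SE; adjusted p = 0.0687). Its relative Cbln1 was higher by 0.92 ± 0.20 at a low level, and Ntng1, a netrin-G ligand found on thalamic axons, by 0.92 ± 0.22. Clstn2, a calsyntenin of the postsynaptic membrane, read 10.07, 10.25 and 10.31 in control, 9.77, 9.61 and 9.62 in vehicle-treated VPA and 9.69, 9.77 and 9.59 in OXT-treated VPA rats and was lower (-0.54 ± 0.08 SE, adjusted p = 0.0687). Cdh7, a type II cadherin, read 7.0, 6.78 and 6.89 in control, 8.50, 8.21 and 8.07 in vehicle-treated VPA and 8.64, 8.76 and 7.77 in OXT-treated VPA rats, a difference of 1.44 ± 0.21 (SE; adjusted p = 0.0687). Of 20 cadherins and protocadherins 7 were higher and 2 lower, beside 4.92% and 8.67% of genes over the level. Most differed by far less than Cdh7, such as Pcdh7 at 0.25 ± 0.06 and Cdh22 at 0.27 ± 0.07.

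Of 28 axon guidance genes, 8 were lower and 1 higher, and all 8 lay below every control array in all 6 VPA arrays, with a list median of -0.149. Of all genes 5.41% were lower, 4.45% higher and 4.24% separated below, and of genes over the level 8.67%, 4.92% and 7.65%. Of the 8, 4 were Eph receptors of the A class, which guide axons by repulsion, with Epha4 at -0.36 ± 0.08, Epha7 at -0.36 ± 0.09 and Epha5 at -0.34 ± 0.09. Sema3e, a secreted repellent, read 8.67, 8.72 and 8.49 in control, 8.29, 8.13 and 8.25 in vehicle-treated VPA and 8.13, 8.24 and 8.06 in OXT-treated VPA rats, a difference of -0.44 ± 0.08 (SE; adjusted p = 0.0856). Slit1 was lower (-0.36 ± 0.10), and its receptor Robo1 gave -0.28 and passed. Without the arrays of high thalamic level, Epha5 (-0.31) and Slit1 (-0.185) did not pass. The list mean was 8.029 to 8.082 in the control arrays and 7.850 to 7.935 in the VPA arrays, and no member met the fold criterion.

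Markers of the hippocampal principal cells were counted by field, and a difference between fields was not tested. None of 9 dentate granule cell markers passed, with Prox1, the factor of granule cell identity, at 0.02. Of 13 markers of CA1 and CA3, 3 were lower, beside 5.41% of all genes and 8.67% of genes over the level. These were Cpne4, Grik4 and the pyramidal factor Neurod6. Neurod6 read 10.26, 10.28 and 10.23 in control, 9.67, 9.72 and 9.72 in vehicle-treated VPA and 9.47, 9.82 and 9.89 in OXT-treated VPA rats, a difference of -0.54 ± 0.10 (SE; adjusted p = 0.0815). Of 8 CA2 markers 3 were lower, beside the same 5.41% and 8.67%, with Rgs14, a brake on plasticity in CA2, at -0.77 ± 0.18. The others were Ptpn5 (-0.245) and Sostdc1 (-1.20), and only 1 of the 8 was separated. Ptpn5 did not pass without control replicate 2 (-0.17) or without the arrays of high thalamic level (-0.255). Sostdc1, also made by the choroid plexus, differed between the VPA groups at an unadjusted p under 0.05. It did not pass with the choroid plexus score as a covariate (-0.18). Hpca, the calcium sensor hippocalcin, read 12.49, 12.43 and 12.48 in control, 12.07, 11.95 and 11.29 in vehicle-treated VPA and 11.92, 12.04 and 11.67 in OXT-treated VPA rats, a difference of -0.64 ± 0.17 (SE; adjusted p = 0.238).

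Of 14 kinases, cyclases and phosphatases of synaptic plasticity, 6 were lower and 2 higher, beside 8.67% and 4.92% of genes over the level, with a median of -0.192, and the list mean was 10.137 to 10.147 in the control arrays and 9.906 to 10.072 in the VPA arrays. Prkca, protein kinase C alpha, read 10.30, 10.41 and 10.57 in control, 9.88, 9.86 and 9.45 in vehicle-treated VPA and 9.66, 9.78 and 9.63 in OXT-treated VPA rats, a difference of -0.72 ± 0.11 (SE; adjusted p = 0.0687). Camk4, a nuclear kinase that activates CREB, was lower (-0.50 ± 0.12) and Adcy1, a calcium-activated adenylyl cyclase (-0.31 ± 0.10, not passing without control replicate 3 at -0.21), while its relative Adcy8 was higher by 0.60 ± 0.14. Trhde, the enzyme that degrades thyrotropin-releasing hormone, was lower (-0.84 ± 0.11 SE, adjusted p = 0.0687) and Pbld1 (-0.83 ± 0.15 SE, adjusted p = 0.0883), both without overlap. The secreted protease Prss23 was lower (-1.03 ± 0.25 SE, adjusted p = 0.201) and the carboxypeptidase Cpm (-0.86 ± 0.24 SE, adjusted p = 0.272). Prss23 gave -0.83 without the arrays of high thalamic level and did not pass.

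Of 19 genes of oligodendrocytes and myelin, 9 were lower and none higher, with a median of -0.508. Of all genes 5.41% were lower and 4.45% higher, and of genes over the level, which include 18 of the 19, 8.67% and 4.92%. Opalin, a myelin membrane protein, read 10.18, 10.12 and 10.58 in control, 9.21, 9.68 and 8.93 in vehicle-treated VPA and 9.80, 9.57 and 8.96 in OXT-treated VPA rats, a difference of -0.94 ± 0.22 (SE; adjusted p = 0.194). Myrf, the factor that drives myelination, was lower (-0.64 ± 0.20), and Fa2h, which makes myelin lipids (-0.60 ± 0.20). Without control replicate 3, Myrf (-0.50), Fa2h (-0.415), Ermn (-0.39) and Aspa (-0.33) did not pass, and none of these 4 passed with the choroid plexus score as a covariate. Opalin passed in both. The precursor cell markers Pdgfra and Cspg4 gave -0.03 and 0.06 and did not pass. The list mean was 9.245 to 9.710 in the control arrays and 8.547 to 9.232 in the VPA arrays, lowest in replicates 3 of both VPA groups and highest in control replicate 3. The major myelin genes Mbp and Mobp gave -0.45 and -0.52 and did not pass. Without the 4 VPA arrays of high thalamic level, the median of the list was -0.93, and that of the cilia list described next -0.76.

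Genes of motile cilia, which ependymal cells carry on the ventricle wall, were lower as well. Of 18 measured 10 were lower and none higher, beside 5.41% and 4.45% of all genes, with a median of -0.446. Stoml3, a membrane protein of the stomatin family found on cilia, read 6.46, 6.56 and 7.30 in control, 5.49, 5.71 and 5.19 in vehicle-treated VPA and 5.71, 4.77 and 5.44 in OXT-treated VPA rats, a difference of -1.39 ± 0.25 (SE; adjusted p = 0.0816), and Ak7, an adenylate kinase of the ciliary axoneme, was lower (-1.25 ± 0.39 SE, adjusted p = 0.344). Cfap43 overlapped between the groups and was lower (-1.48 ± 0.51). Without control replicate 3, Ak7 (-0.97), Cfap43 (-1.22) and Dnah5 (-0.365) did not pass, nor with the choroid plexus score as a covariate (-0.77, -0.69 and -0.38), while Stoml3 passed in both. Of 30 markers of the choroid plexus 11 were lower, beside 5.41% of all genes, and none of the 30 was separated. Between the VPA groups, 22 of the 30 differed at an unadjusted p under 0.05, beside 3.08% of all genes. All 22 were higher in the OXT-treated group. Against control, the list median was -0.65 in the vehicle-treated and -0.105 in the OXT-treated VPA group. Ttr, the thyroxine carrier transthyretin, read 12.59, 12.23 and 12.03 in control, 6.82, 8.76 and 6.80 in vehicle-treated VPA and 12.83, 12.03 and 5.91 in OXT-treated VPA rats. Only 4 of the 6 VPA arrays were low, and the difference of -3.42 ± 1.34 (SE; adjusted p = 0.477) is a mean over arrays at the control level and arrays far below it. It did not pass when any 1 control array was left out (-3.55 to -3.27) or without replicate 1 or 3 of the vehicle-treated VPA group (-3.27 and -3.26). The mean of the choroid plexus list ranged from 6.880 to 7.476 in control and from 5.755 to 6.177 in vehicle-treated VPA rats, and was 7.780, 6.999 and 6.131 in OXT-treated VPA rats. The part of the amount of choroid plexus, ependyma and white matter in the sample in these differences was not tested.

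Of 17 genes of endothelium and pericytes 7 were higher and none lower, beside 4.45% and 5.41% of all genes, with a median of 0.178, and the list mean was 7.085 to 7.117 in the control arrays and 7.196 to 7.422 in the VPA arrays. Abcb1a, the efflux pump of the blood-brain barrier, read 8.11, 8.01 and 7.90 in control, 8.55, 8.44 and 8.61 in vehicle-treated VPA and 8.42, 8.37 and 8.62 in OXT-treated VPA rats, a difference of 0.49 ± 0.09 (SE; adjusted p = 0.0795), and Cldn5, its tight junction protein, was higher by 0.30 ± 0.10. Without the arrays of high thalamic level, Abcb1a still passed (0.61). The higher members Cldn5 (0.25), Slc19a3 (0.44), Esam (0.26) and Vtn (0.47) did not pass there. Of 3 hemoglobin genes 2 were higher, Hba-a1 by 0.95 ± 0.29 and Hbb-b1 by 0.67 ± 0.24. Neither passed without control replicate 1 (0.63 and 0.55), nor Hbb-b1 without control replicate 2 (0.67), and the part of red cell RNA in the vascular result was not tested. Of 17 genes of meninges and fibroblasts 6 were higher. Between the VPA groups 8 differed, beside 3.08% of all genes, with OXT-treated replicate 3 at the top. Their list mean was 7.152, 7.247 and 6.882 in control, 7.223, 7.487 and 6.792 in vehicle-treated VPA and 7.646, 7.380 and 7.968 in OXT-treated VPA rats, so that the vehicle-treated and control arrays overlapped. None of 17 genes of microglia and innate immunity passed, and their median was 0. Of 15 astrocyte genes 5 were higher and none lower, beside 4.45% and 5.41% of all genes. Gfap and Aqp4 gave -0.21 and 0.12 and did not pass. Of the 5, Gjb6 (0.26), Slc4a4 (0.22) and Aldoc (0.255) did not pass without the arrays of high thalamic level. Itih3 (0.54) and Agt (0.415) still passed there, and both were highest in those arrays.

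Of 12 histone deacetylases and sirtuins, Hdac1 alone passed, higher by 0.28 ± 0.09 (SE; adjusted p = 0.385), with 7.12, 6.92 and 7.25 in control, 7.46, 7.48 and 7.54 in vehicle-treated VPA and 7.28, 7.38 and 7.12 in OXT-treated VPA rats and an overlap of the groups. Hdac1 was not shown to be shared, with 0.40 from control in vehicle-treated but only 0.16 in OXT-treated VPA rats, where it did not pass. The VPA groups differed by -0.23 (OXT-treated minus vehicle-treated), which did not pass. In the contrast of both groups, Hdac1 did not pass without control replicate 2 (0.19) or with the thalamus score as a covariate (0.23). Nor did it without the arrays of high thalamic level (0.23). Hdac2 and Hdac3 gave -0.01 and -0.09. Of 24 genes tied to autism and epilepsy, 9 were higher and 2 lower, 8 and 2 of them without overlap, and the median was 0.063. Of all genes 4.45% were higher and 5.41% lower, and 2.8% and 4.24% were without overlap. The list was chosen with earlier results of these data known, which may raise its counts. Cntn6, a neuronal contactin, read 5.60, 5.71 and 5.70 in control, 6.31, 6.65 and 6.72 in vehicle-treated VPA and 6.59, 6.71 and 6.27 in OXT-treated VPA rats, a difference of 0.87 ± 0.12 (SE; adjusted p = 0.0687). Cntn4, Dscam and Ahi1 were higher by 0.42 ± 0.11, 0.33 ± 0.06 and 0.41 ± 0.11, and Grin2a and Shank2 were lower, while Fmr1, Chd8 and Shank3 gave 0.03, 0.05 and -0.07 and did not pass. Among 21 developmental patterning genes, Pbx3 was higher by 0.85 ± 0.20 and Nr2f1, the relative of Nr2f2, by 0.25 ± 0.08. Without the arrays of high thalamic level, Ahi1 (0.275) and Pbx3 (0.45) did not pass, and Nr2f1 did not pass without control replicate 3 (0.20).

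Of 15 ribosomal protein genes 1 was lower, of 14 heat shock genes 1, of 13 genes of cholesterol synthesis 2, and of 17 genes of the respiratory chain 3 were higher, with medians of -0.003, -0.057, -0.107 and 0.09. With lists of this size, such counts lie near the 5.41% lower and 4.45% higher of all genes, or the 8.67% and 4.92% of genes over the level, except that of the respiratory chain. The 3 genes of that list were Ndufs1, Ndufs4 and Cycs, higher by 0.195, 0.20 and 0.15. None of them passed without control replicate 3 (0.14, 0.17 and 0.16) or without the arrays of high thalamic level (0.18, 0.25 and 0.11). Of 24 Wnt pathway genes 3 were lower and 1 higher, with Dkk3, a secreted Wnt modulator, lower (-0.56 ± 0.11). Of 15 retinoic acid genes 2 were higher and 1 lower. The median over all genes was -0.005 and over genes above the level -0.0267.

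**Figure D4:**
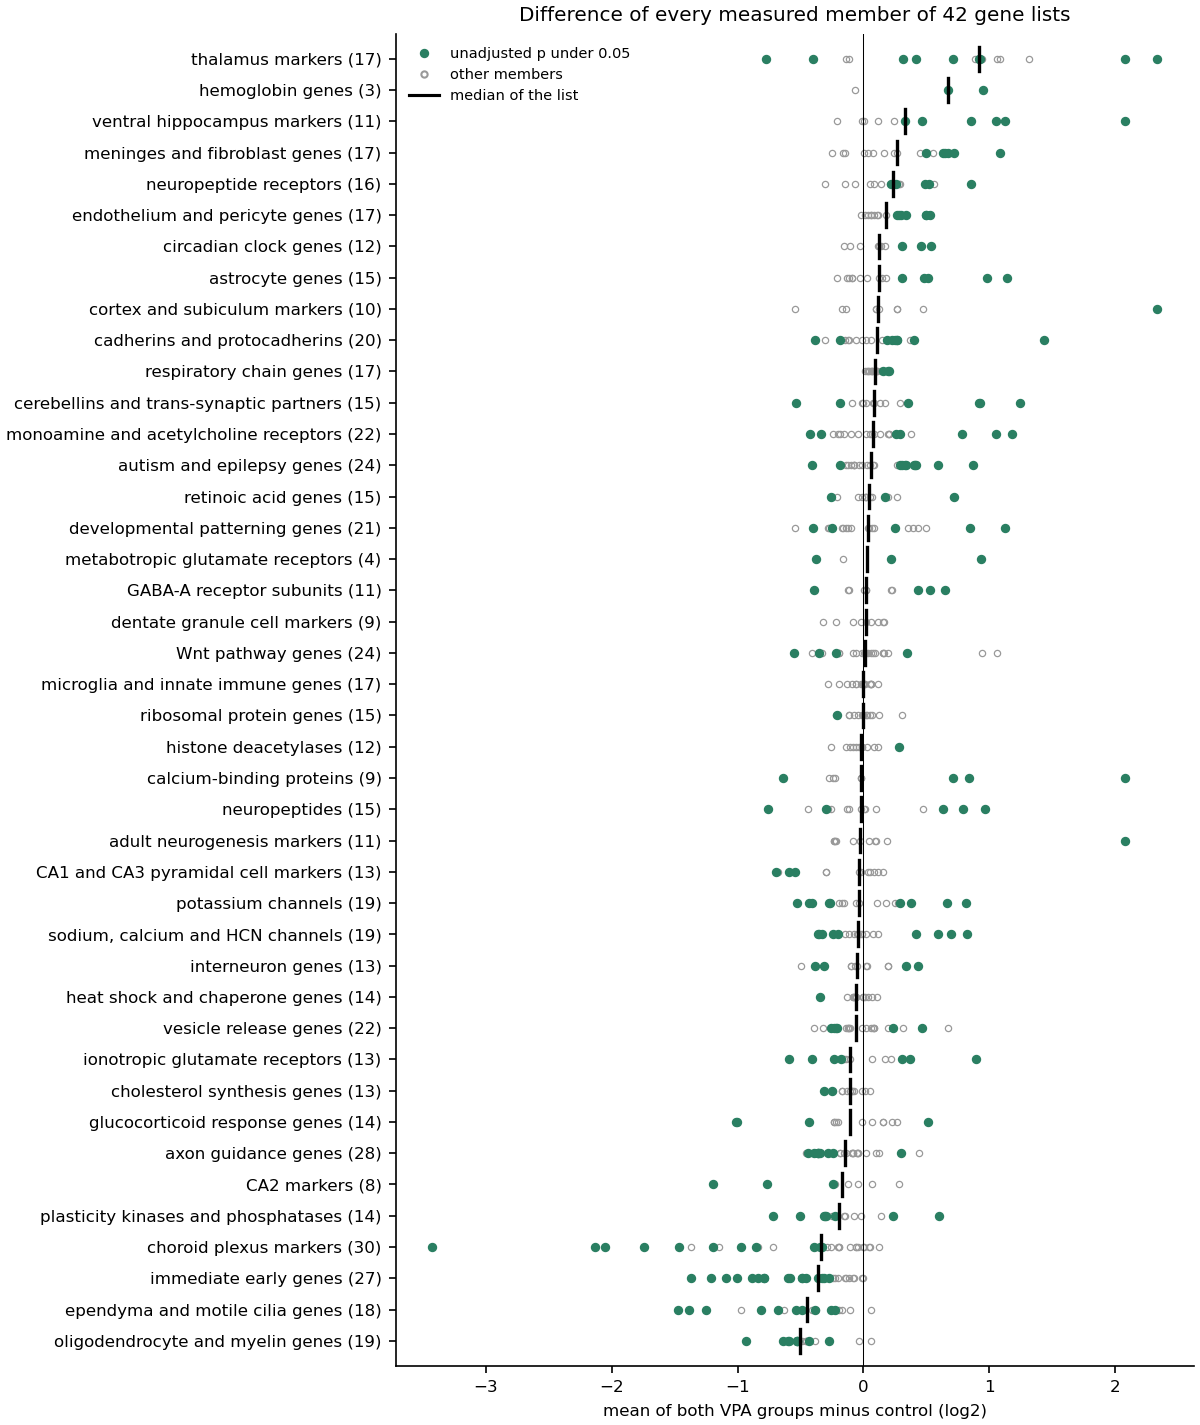
Difference of both VPA groups from control, on the log2 scale, for every measured member of 42 gene lists, with the number of members in brackets. Filled points passed at an unadjusted p under 0.05, open points did not, and the bar is the median of the list. The thalamus list has the highest median at 0.918 and the myelin list the lowest at -0.508, and the choroid plexus list reaches from Ttr at -3.42 to values near 0.

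The difference between the OXT-treated and vehicle-treated VPA groups, which does not use the control arrays, tested where the 2 VPA groups parted. Of the 155 genes that met the criteria, 12 (7.74%) differed between the VPA groups at an unadjusted p under 0.05, against 3.08% of all genes and 1.8% of genes over the level, and none after adjustment. In 7 of the 12 the OXT-treated group was nearer to control, and all 7 were choroid plexus genes, led by Slc4a5 and Kcnj13. Kcnj13, a potassium channel of that epithelium, read 9.20, 8.64 and 8.10 in control, 5.19, 5.83 and 5.07 in vehicle-treated VPA and 9.67, 8.32 and 5.50 in OXT-treated VPA rats. The OXT-treated group thus held 2 arrays at the control level and 1 at that of the vehicle-treated group. In the other 5 genes the OXT-treated group was farther from control. Gjb2, a connexin of meningeal cells, read 6.48, 6.74 and 6.30 in control, 6.76, 6.83 and 6.83 in vehicle-treated VPA and 7.48, 7.30 and 7.40 in OXT-treated VPA rats, and Col3a1, a fibrillar collagen, was higher in the OXT-treated than in the vehicle-treated VPA group by 0.52. For the remaining 143 genes the 2 VPA groups were not shown to differ, which does not show that they were alike. For Nr2f2 the difference between the VPA groups was -0.11, for Ankrd34b -0.01, for Fos -0.09 and for Nr4a1 -0.24.

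**Figure D5:**
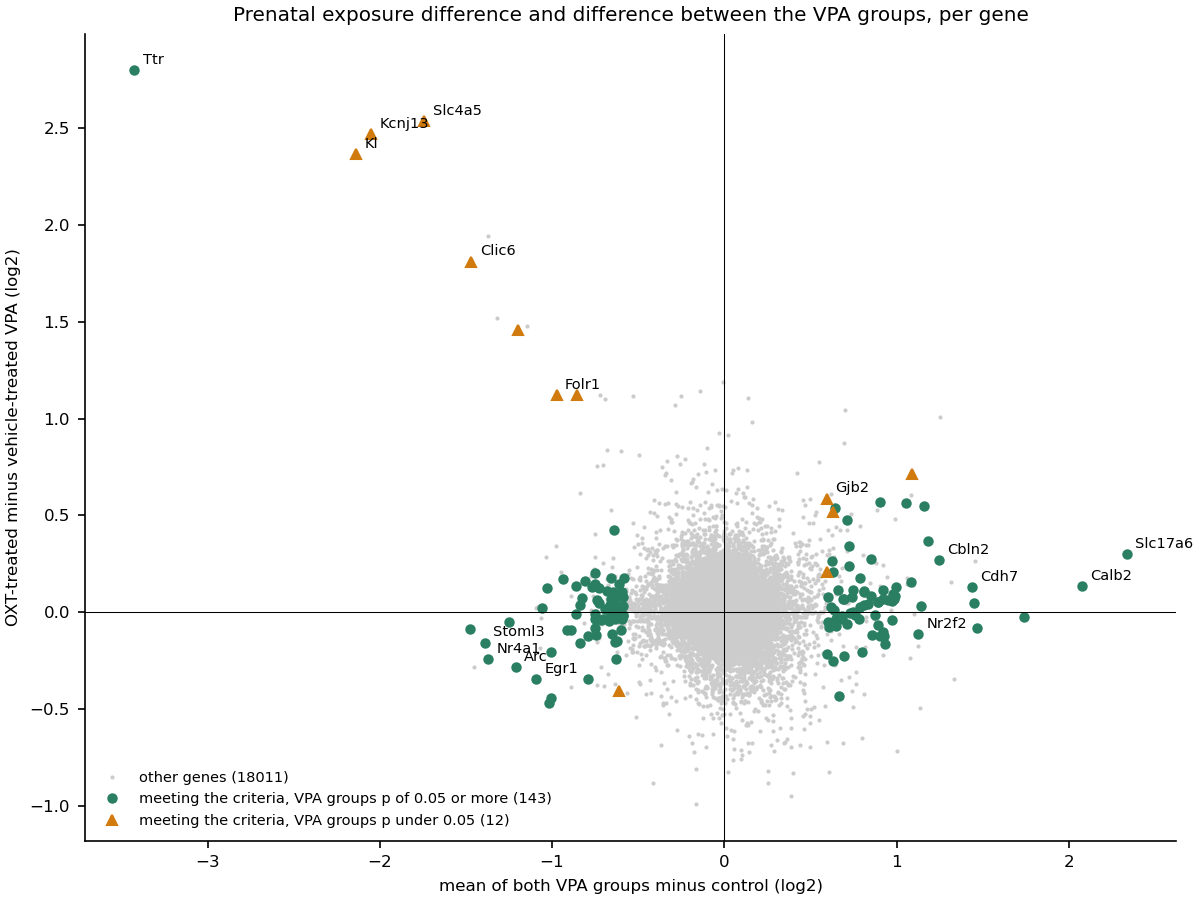
Difference of both VPA groups from control against the difference between the OXT-treated and vehicle-treated VPA groups, both on the log2 scale, 1 point per gene. Of the 155 genes that met the criteria, 143 are drawn as circles, and the 12 triangles differed between the VPA groups at an unadjusted p under 0.05. Kl, Kcnj13 and Slc4a5 form the upper left arm beside Ttr, whose difference between the VPA groups did not pass.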

How the data were processed

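RNA of 9 dorsal hippocampi was measured on Affymetrix Rat Gene 2.0 ST arrays. The authors deposited log2 values of 30429 probe sets, made with Transcriptome Analysis Console (version 4.0) and Expression Console; the summarization method, genome build and annotation version are not given in the sources used here. The values were used as deposited. Platform annotation gave 18511 probe sets 1 symbol, 575 several and 11343 none, and 18394 gene IDs matched RefSeq (GRCr8). The probe set with the highest mean stood for a gene. The 3 groups were modeled by limma (3.58.1, R 4.3.3) over all probe sets, with Benjamini-Hochberg adjustment, and was tested on simulated data. The criteria were an unadjusted p under 0.05, more than 1.5-fold (0.585 on the log2 scale) and a mean log2 value over 6.6 in at least 1 group. Named genes were the 15 higher and 15 lower separated genes with the largest differences, the 10 smallest p, up to 5 members per list with the smallest p, 10 fixed names, and up to 8 genes that differed between the VPA groups; members of a list named to give its range were chosen after their values were seen. The 42 lists hold 726 genes, of which 634 were measured. Members and lists were chosen with earlier results of these data known. A list count above the share of all genes may partly follow from that choice. Lists overlap and were not tested as sets. Alternatives were a fit with 2 exposure levels, other normalization, array weights, other moderation, filters, covariates, a replicate block and leaving out arrays. The number of arrays limits the precision.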

Additional observations from a re-analysis of the deposited data

Results flagged for a closer look

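In 5 of 95 values tested, 1 VPA array lay far from the other 5 of its kind, where chance alone gives about 1 in 20. These were Adgra1 at 8.20, Sp1 at 6.34, and the means of the astrocyte list at 9.443, the microglia list at 6.644 and the autism and epilepsy list at 8.162, each the value of the outlying array.

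The 12 genes that met the criteria and differed between the VPA groups at an unadjusted p under 0.05 fell into those with the OXT-treated group nearer to control and those with it farther away. Nearer were Slc4a5 (2.54, OXT-treated minus vehicle-treated VPA on the log2 scale), Kcnj13 (2.47), Kl (2.37), Clic6 (1.81), Sostdc1 (1.46), Folr1 (1.12) and Tmem72 (1.12). Farther were Slc6a20a (0.71), Gjb2 (0.59), Col3a1 (0.52), Zcchc12 (0.21) and Tuba8 (-0.41).

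Among probe sets with no gene symbol or several, 40 met the criteria, 24 higher and 16 lower. They could not be named here and entered no count of genes.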

How the results depend on the processing

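Of 166 named genes that passed at an unadjusted p under 0.05, 156 were tested in every alternative, and 77 of these passed in each. The other 10 lay below the level, and 4 of them passed in every alternative but the one restricted to probe sets over 6.6. Leaving out single control arrays ended the call of 55 of the 166. The count after adjustment, 2 probe sets, varied with the model and the filter. It was 109 with 2 exposure levels in place of 3 groups, 288 with array weights, 167 with trend and robust moderation, 252 among probe sets over 6.6, 35 among probe sets with 1 symbol, 14 with the choroid plexus score as a covariate, 16 with the thalamus score as a covariate, and 0 with the replicate number as a block. It ran from 0 to 11 when 1 array was left out, was 0 without control replicate 1 or 2 or without replicate 1 or 2 of either VPA group, and held neither of the 2 genes without control replicate 3. The 155 genes by the criteria became 312 with the thalamus score as a covariate, 125 of them shared, 31 at 2-fold, 246 without the level, and 115 to 172 when 1 array was left out. Higher genes numbered 139 with the choroid plexus score and 64 to 105 when 1 array was left out. Lower genes numbered 52 with array weights, 220 with the thalamus score, and 45 to 101 when 1 array was left out, with 47 without control replicate 3 and 45 without vehicle-treated replicate 3. Separated genes numbered 1411 to 2208 when 1 array was left out, the most with fewer control arrays. Without the 4 VPA arrays of high thalamic level, chosen after the data were seen, 334 genes met the criteria, 239 of them lower and 113 shared with the 155, 5122 were separated with fewer arrays to separate, and 0 probe sets passed after adjustment. Without the genes of the choroid plexus, cilia, meninges and thalamus lists, 135 genes were left.

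Hdac2, at -0.01, changed sign with quantile normalization (0.0091), array weights (0.0022), the thalamus covariate (0.0222), and without control replicate 3 (0.0267), vehicle-treated replicate 1 (0.0258) or OXT-treated replicate 3 (0.0142), with a range of -0.0533 to 0.0267 when 1 array was left out, and without the arrays of high thalamic level (0.0117). The cause of these changes was not tested. With the replicate number as a block, 161 genes met the criteria, 150 of them shared. Deviations of same-numbered arrays from their group means correlated between -0.162 and 0.296 in 9 pairs, 2 of them over 0.1. In 18 pairs of arrays with different numbers, they correlated between -0.351 and 0.256, 5 of them over 0.1. Whether same-numbered arrays share more than a number was not tested.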
